A study of Mus with 15 samples.

Results

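The chemokine ligand genes of the mouse were followed in fat grafts. They were the protein-coding genes whose symbols begin with Ccl, Cxcl, Cx3cl or Xcl, together with Pf4 and Ppbp, after the lymphoid tissue chemokines Ccl19, Ccl21a, Ccl21b, Ccl21c and Cxcl13 had been left out by name. That gave 37 of the 55471 genes in the deposited matrix, under 36 symbols, since Ccl27 occurs there on 2 unplaced scaffolds. The groups were fat grafts 7 days after grafting (day 7 grafts), fat grafts 3 days after grafting (day 3 grafts) and control adipose tissue, with 5 samples each. All 15 samples came from adipose tissue of wild-type C57BL/6 mice aged 7 weeks, and the labels name no other allele or agent, no fat depot and no recipient site. Messenger RNA was sequenced from whole tissue, so a change can come from the graft's own cells or from cells that entered it, and fewer cells of a type and less RNA per cell cannot be told apart. Nothing in the labels says that the samples of a group came from separate animals, so the p-values measure the spread between these samples.

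Chemokines are small secreted proteins that bind G-protein coupled receptors on leukocytes and other cells and direct their migration along a concentration gradient. The spacing of their first cysteines divides them into the CC, CXC, CX3C and XC families, and most are named by family, with the letter l for ligand and r for receptor. Inflammatory chemokines are switched on in injured tissue and call in neutrophils, monocytes, eosinophils or activated lymphocytes, each through its own receptors. Homeostatic chemokines are made at rest and keep cells in their places. In fat, the monocyte attractant Ccl2 is known for its part in the recruitment of macrophages.

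The libraries held 20.2 to 32.0 M estimated counts in the day 7 grafts, 23.7 to 29.4 M in the day 3 grafts and 17.1 to 31.8 M in the controls. The floor used here for detection, 3 counts, corresponds to 0.0900 to 0.174 CPM (counts scaled to a common library size of 1e6) in a library, and floors cover counting error only. The 6 adipocyte markers, among them Adipoq and Fabp4, were detected in every group, at a summed level of 969 to 2198 CPM in the day 7 grafts, 1545 to 5839 CPM in the day 3 grafts and 9568 to 29878 CPM in the controls. Some libraries stood apart, and 5 of them, named here, were left out together in 1 alternative fit. They were listed by name, and no numeric cut-off is given for the choice. Day 7 graft 5 and day 3 graft 1 had the highest macrophage marker sums of their groups, 13817 and 12073 CPM. The next highest sums were 11353 CPM in day 7 graft 1 and 9984 CPM in day 3 graft 3. Control 4 had a summed level of 6 lymph node stroma markers of 59.8 CPM, against 787 to 989 CPM in the other controls. In the grafts these markers summed to 2.17 to 127 CPM at day 7 and 7.68 to 48.8 CPM at day 3. All 6 were called lower on both days, where 28.4% of all genes were at day 7 and 30.2% at day 3. The part of lymph node tissue in the ligands and receptors that fell was not tested. Control 5 had the highest value among the controls for 15 of the 29 ligands tested, and control 2 had the highest sum of skeletal muscle markers. Control 1 was not among the 5, although its keratinocyte markers summed to 159 CPM, against 4.88 to 15.7 CPM in the other controls.

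More of the ligands rose than fell in the grafts on both days. Among genes that passed a filter on low counts, the share of ligands that fell was below that of all genes. Of the 37 genes 29 passed the filter on low counts, which asked for at least 0.389 CPM in 5 samples, and 8 did not. Of the 29, 21 lay above that level in all 15 samples. Cxcl2, Cxcl3 and Cxcl5 passed through graft samples, with at most 2 controls above it, so that a difference in these 3 was fixed by the filter. These 3 are included in the counts below of ligands that rose and of ligands without overlap, on both days. In day 7 grafts against controls 17 of the 29 rose, 5 fell and 7 did not pass an adjusted p of 0.05 in limma, where 60.7% of all 16051 genes tested were called, 32.3% as higher and 28.4% as lower. In day 3 grafts against controls 19 rose, 5 fell and 5 did not pass, with 60.3% of all genes called, 30.1% as higher and 30.2% as lower. The median fitted log2 fold change of the 29 was 1.44 at day 7, against 0.03 over all genes, and 2.05 at day 3, against -0.01 over all genes. Graft and control samples did not overlap for 14 ligands higher and 2 lower at day 7, where the shares over all genes were 22.8% and 19.7%. At day 3 they did not overlap for 17 ligands higher and 3 lower, where the shares were 20.6% and 19.8%. The 2 comparisons share their controls. Of all genes called, 53.2% were higher at day 7 and 50.0% at day 3, whereas on the log2(TPM + 1) scale 74.1% and 68.0% were, with the median of all genes shifted up by 0.303 and 0.230. On that scale 19 ligands were higher and 3 lower at day 7, and 20 higher and 3 lower at day 3. With no filter the share of ligands that fell was not below that of all genes at day 3. There 8 of 35 ligands were lower, and 11502 of 28690 genes were called, 45.9% of them as higher. In day 7 grafts 7 of 35 ligands were lower with no filter, and 11581 genes were called, 48.5% of them as higher.

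**Figure D1:**
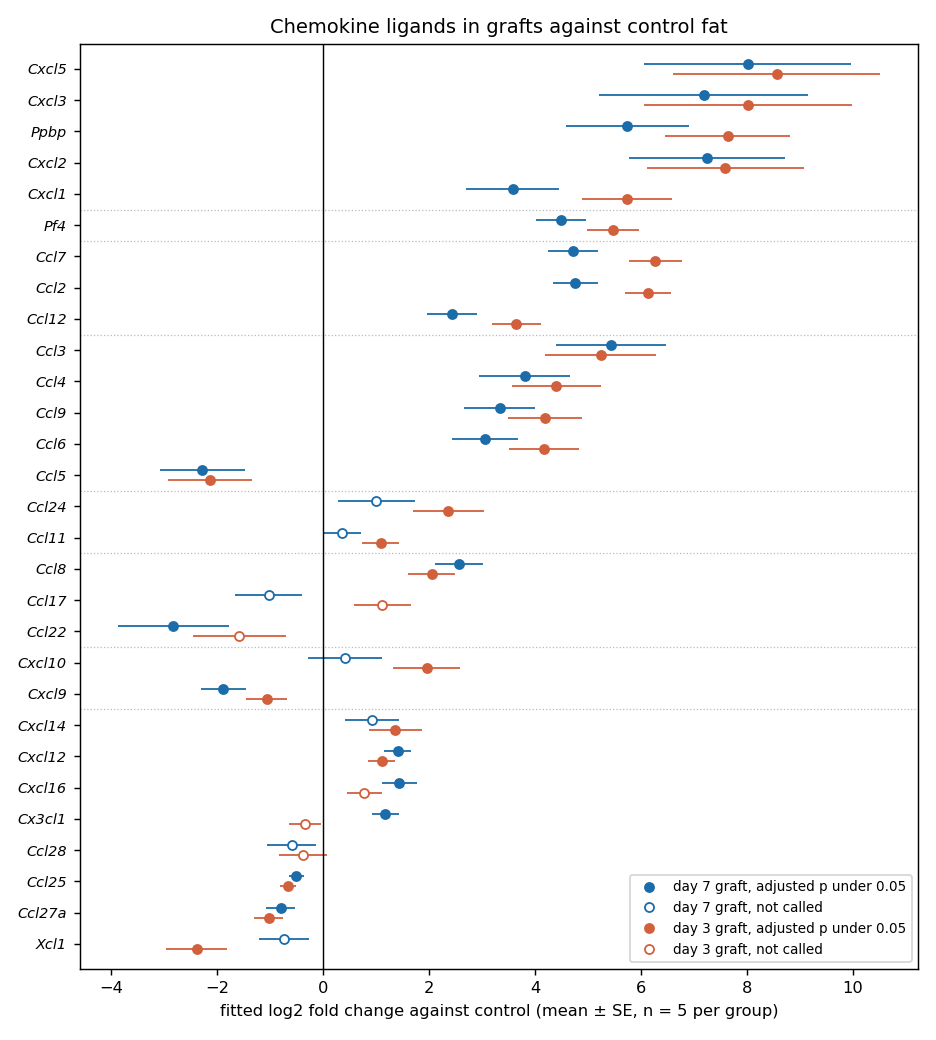
Fitted log2 fold change (horizontal axis, mean ± SE, 5 samples per group) of each of the 29 ligands tested, with day 7 grafts in blue and day 3 grafts in orange, each against control; filled points passed an adjusted p of 0.05 and dotted lines part the receptor groups. The neutrophil attractants at the top lie between 3.57 and 8.56, whereas Ccl5, Cxcl9, Ccl25 and Ccl27a lie below 0 with filled points on both days. Ccl22 and Xcl1 also lie below 0 on both days, with a filled point only at day 7 for Ccl22 and only at day 3 for Xcl1.

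The ligands that rose on both days numbered 15, namely Cxcl1, Cxcl2, Cxcl3, Cxcl5, Ppbp, Pf4, Ccl2, Ccl7, Ccl12, Ccl3, Ccl4, Ccl6, Ccl9, Ccl8 and Cxcl12. Those that fell on both days were Ccl5, Cxcl9, Ccl25 and Ccl27a. Ccl11, Ccl24, Cxcl10 and Cxcl14 passed as higher at day 3, Cx3cl1 and Cxcl16 as higher at day 7, Xcl1 as lower at day 3 and Ccl22 as lower at day 7. Ccl17 and Ccl28 passed in neither comparison with controls. The group mean was highest in day 7 grafts for 6 ligands, in day 3 grafts for 16 and in controls for 7. No share over all genes is given for calls on both days or for the highest group. Both comparisons use the same controls, so the calls on day 7 and day 3 are not independent. The counts in this paragraph therefore describe the ligands only and cannot show that they differ from other genes.

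Levels of different genes were compared per transcript length, in the TPM values that the authors deposited, in which the transcript level is divided by length and scaled to the library. Summed over the 37 genes the ligands held 8919 ± 3295 TPM in the day 7 grafts, 13198 ± 2552 TPM in the day 3 grafts and 1242 ± 948 TPM in the controls (SD, n = 5 each). The day 7 sum was 7.18 times and the day 3 sum 10.6 times that of the controls, and the day 7 sum was 0.676 times that of day 3. These ratios hold for TPM, and on the log2(TPM + 1) scale the median of all genes was itself shifted up in the grafts, by 0.303 at day 7 and 0.230 at day 3. In scaled CPM the ligands summed to 4448 ± 2045 CPM in the day 7 grafts, 7316 ± 1649 CPM in the day 3 grafts and 926 ± 560 CPM in the controls, a smaller rise. Single samples ran from 6460 to 14510.2 TPM at day 7, from 10382 to 16015 TPM at day 3 and from 659 to 2911 TPM in the controls, so no graft reached as low as the highest control. That highest control was control 5, and the other 4 controls held 659 to 1074 TPM. In day 7 graft 5 the sum was 14510.2 TPM, above the 6460 to 9217 TPM of the other day 7 grafts and within the range of day 3.

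Few genes made up most of this sum. In day 7 grafts Ccl8 made up 23.7% of it, Ccl6 19.8%, Pf4 16.6% and Ccl9 13.7%, which add up to 73.7%. In day 3 grafts the leading 4 were Ccl6 at 26.0%, Pf4 at 18.9%, Ccl9 at 14.4% and Ccl8 at 10.1%, which add up to 69.5%. In controls Ccl8 made up 25.2%, Ccl6 18.1%, the lymphocyte product Ccl5 11.4% and the stromal ligand Cxcl12 8.77%. The CCR2 ligands Ccl2, Ccl7 and Ccl12 together took 12.3 ± 4.23% of the sum at day 7, 18.9 ± 2.96% at day 3 and 4.74 ± 2.59% in controls (SD, n = 5 each). The CXCR2 ligands took 4.12 ± 2.87% at day 7, 5.68 ± 3.30% at day 3 and 0.425 ± 0.325% in controls. Day 3 and control samples did not overlap in either share. The CXCR3 ligands took 0.411 ± 0.229% at day 7, 0.476 ± 0.217% at day 3 and 2.88 ± 1.23% in controls, shares of sums that differ in size as given above. Their own summed level was 26.1 ± 14.1 CPM at day 7, 48.8 ± 14.7 CPM at day 3 and 48.7 ± 8.02 CPM in controls.

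**Figure D2:**
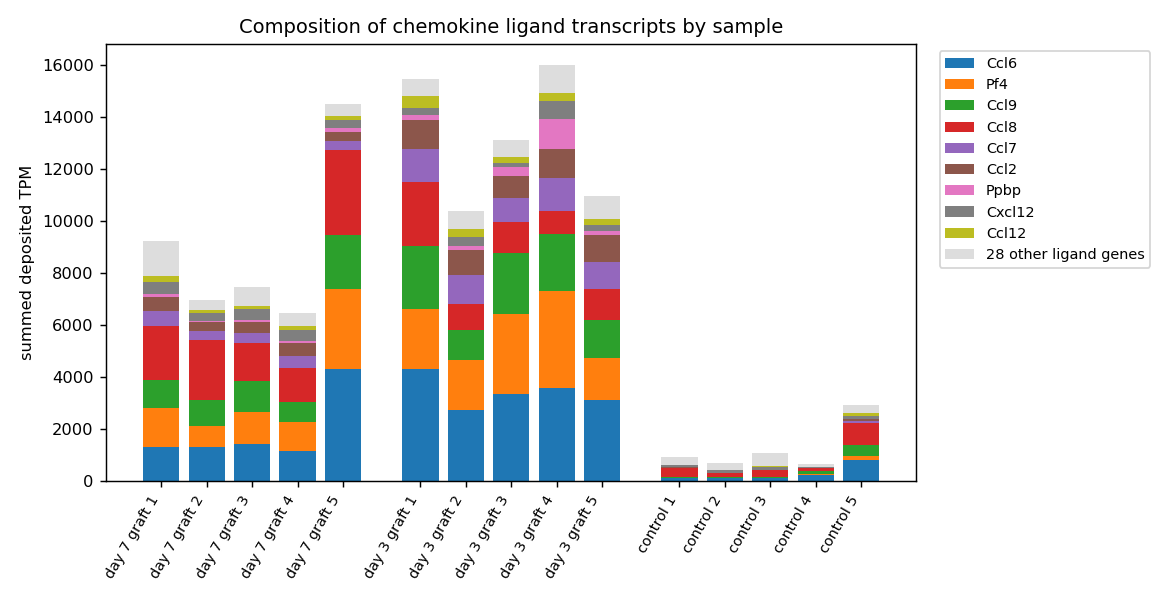
Summed deposited TPM (vertical axis) of the 37 ligand genes in each sample, stacked by gene, with the 9 genes of the highest mean in color and the other 28 in gray. Day 7 graft 5 stands at 14510.2 TPM among day 7 grafts of 6460 to 9217 TPM, and control 5 at 2911 TPM above the other controls.

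The largest fitted changes of the family against control, on both days, were those of Cxcl5, Cxcl3, Cxcl2 and Ppbp, CXC ligands that act on CXCR2, the main chemokine receptor of neutrophils. For Cxcl5, Cxcl3 and Cxcl2 the filter had fixed the direction, as given above, and the size of all 4 rests on controls at or near 0. On the log2(CPM + 1) scale the day 3 changes of Ccl7 and Ccl2, 6.00 and 5.87, exceeded those of Cxcl5, Cxcl3 and Cxcl2. Cxcl1 and Ppbp, the CXCR2 ligands that did not pass through graft samples alone, rose on both days. Cxcl1 (ENSMUSG00000029380, chr5:90891241-90893115), an early neutrophil attractant of injured tissue, had 17.9, 7.07, 13.8, 19.1 and 10.6 CPM in the day 7 grafts, 25.6, 94.1, 28.9, 85.4 and 100.1 CPM in the day 3 grafts and 0.995, 0.348, 1.27, 0.505 and 4.88 CPM in the controls. It was low in every control, highest in day 3 grafts 2, 4 and 5, and in between in each day 7 graft. Cxcl1 rose by a fitted log2 fold change of 3.57 ± 0.88 (adjusted p = 0.00266) at day 7 and 5.74 ± 0.85 (adjusted p = 4.99e-05) at day 3. Cxcl2 (ENSMUSG00000058427, chr5:90903871-90905938), a neutrophil attractant made mainly by myeloid cells, had 186, 21.1, 66.7, 21.0 and 36.6 CPM in the day 7 grafts, 37.2, 44.8, 75.8, 103 and 52.2 CPM in the day 3 grafts and 0.262, 0.0580, 0.0452, 0.632 and 1.99 CPM in the controls. The controls lay near or below 2 CPM, and day 7 graft 1 stood above all other samples. Cxcl2 rose by 7.25 ± 1.47 (adjusted p = 0.000671) at day 7 and 7.59 ± 1.47 (adjusted p = 0.000479) at day 3.

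Cxcl3 (ENSMUSG00000029379, chr5:90786103-90789600), a close relative of Cxcl2 with the same receptor, had 93.8, 6.77, 33.3, 10.4 and 27.4 CPM in the day 7 grafts, 26.0, 28.6, 49.7, 132 and 23.8 CPM in the day 3 grafts and 0, 0.116, 0.0904, 0.126 and 1.42 CPM in the controls. It was barely detected in controls 1 to 4 and varied widely among grafts, with day 7 graft 1 and day 3 graft 4 highest in their groups. Cxcl3 rose by 7.18 ± 1.97 (adjusted p = 0.00574) at day 7 and 8.02 ± 1.97 (adjusted p = 0.00277) at day 3. Cxcl5 (ENSMUSG00000029371, chr5:90759360-90761624), which epithelial and stromal cells also make, had 129, 15.2, 87.5, 45.4 and 32.1 CPM in the day 7 grafts, 41.9, 55.8, 31.5, 193 and 118 CPM in the day 3 grafts and 0, 0, 0.0452, 0.211 and 14.3 CPM in the controls. Control 5 stood alone among the controls but below every graft sample, of which day 7 graft 2 was nearest. Cxcl5 rose by 8.01 ± 1.96 (adjusted p = 0.00262) at day 7 and 8.56 ± 1.96 (adjusted p = 0.00169) at day 3.

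The size of the largest changes in these genes depended on controls at or near 0. Without control 5 the day 7 and day 3 changes were 9.64 and 10.19 for Cxcl5, 7.99 and 8.83 for Cxcl3 and 7.94 and 8.29 for Cxcl2. Without control 1 they were 7.33 and 7.88 for Cxcl5 and 6.56 and 7.40 for Cxcl3, and without control 2 those of Cxcl5 were 7.41 and 7.95. On the log2(CPM + 1) scale they were 4.76 and 5.30 for Cxcl5, 4.25 and 5.05 for Cxcl3, 5.00 and 5.34 for Cxcl2 and 2.65 and 4.71 for Cxcl1, all past the threshold. For Cxcl5, Cxcl3 and Cxcl2 that is no separate support, since the filter had fixed their direction. With the 5 libraries that stood apart left out, which leaves 2 controls, Cxcl2 had adjusted p = 0.0657 at day 7 and 0.0550 at day 3. In that fit Cxcl3 had 0.190 and 0.144 and Cxcl5 0.123 and 0.105, with larger fitted changes.

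Neutrophil markers moved beside these ligands. Of the 8 listed, 6 rose on each day, where 32.3% of all genes were called higher at day 7 and 30.1% at day 3. Their summed level was 156 to 960.4 CPM in the day 7 grafts, 78.8 to 469 CPM in the day 3 grafts and 19.2 to 177 CPM in the controls. Within groups, day 7 graft 1 had the highest sum at 960.4 CPM, day 3 graft 4 the highest at 469 CPM and control 5 the highest at 177 CPM, and these 3 samples also had the highest Cxcl2, Cxcl3 and Cxcl5 of their groups. Not all samples followed this order. Day 3 graft 3, with a sum of 437 CPM, had the lowest Cxcl5 of its group at 31.5 CPM. In day 3 graft 2, with the lowest sum of 78.8 CPM, Cxcl5 was at 55.8 CPM. The defining marker Ly6g stayed low, with 0.566 ± 0.509 CPM in the day 7 grafts, 0.537 ± 0.492 CPM in the day 3 grafts and 0.123 ± 0.250 CPM in the controls. The receptor Cxcr2 had 29.1 ± 26.9 CPM in the day 7 grafts, 16.5 ± 11.7 CPM in the day 3 grafts and 10.1 ± 4.66 CPM in the controls, and its fitted changes were 1.24 ± 0.83 (adjusted p = 0.206) at day 7 and 0.41 ± 0.88 (adjusted p = 0.704) at day 3. What share of the ligand change goes with neutrophils was not tested.

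**Figure D3:**
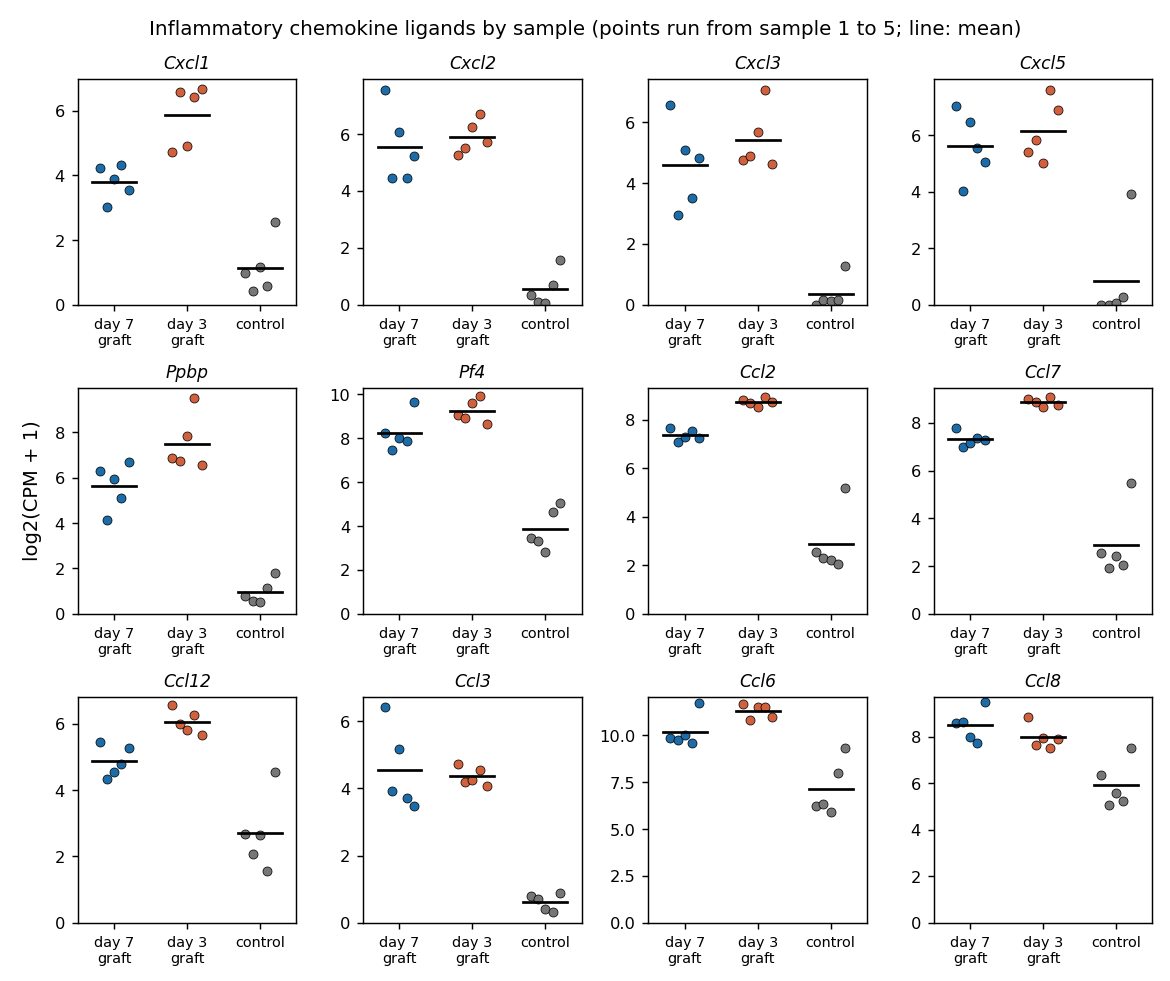
Level of 12 inflammatory ligands in each of the 15 samples as log2(CPM + 1) (vertical axes, one per gene), with groups along the horizontal axes, points in sample order and lines at group means. For Cxcl1, Ccl2 and Ccl7 the 3 groups stand apart, and control 5 lies above the other controls in most panels.

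Pf4 and Ppbp, the CXC chemokines stored in platelet granules, stood among the strongest risers. Ppbp (ENSMUSG00000029372, chr5:90768518-90770063), whose processed product also acts on CXCR2, had 78.5, 16.5, 60.5, 32.9 and 102 CPM in the day 7 grafts, 116, 107, 227, 720.4 and 93.0 CPM in the day 3 grafts and 0.733, 0.464, 0.452, 1.22 and 2.51 CPM in the controls. Day 3 graft 4 was more than 3 times as high as any other sample, and all grafts lay above all controls. Ppbp rose by 5.74 ± 1.16 (adjusted p = 0.00065) at day 7 and 7.63 ± 1.18 (adjusted p = 6.87e-05) at day 3. Pf4 (ENSMUSG00000029373, chr5:90772435-90773383), platelet factor 4, had 298, 177, 256, 234 and 794 CPM in the day 7 grafts, 529, 477, 785, 973 and 397 CPM in the day 3 grafts and 9.84, 8.88, 6.01, 23.8 and 32.3 CPM in the controls. It was among the most abundant ligands of every graft, with day 7 graft 5 at the level of day 3. Pf4 rose by 4.49 ± 0.47 (adjusted p = 2.21e-06) at day 7 and 5.47 ± 0.49 (adjusted p = 6.82e-07) at day 3. Without the libraries that stood apart Ppbp had adjusted p = 0.0540 at day 7 with a change of 6.04, and on the log2(CPM + 1) scale its changes were 4.66 and 6.53.

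The 6 listed platelet markers had a summed level of 77.9 to 126 CPM in the day 7 grafts, 78.2 to 161 CPM in the day 3 grafts and 15.2 to 51.1 CPM in the controls, and every graft lay above every control. Most of that sum was Itgb3, and 4 markers, namely Gp1ba, Gp9, Gp5 and Gp6, the platelet glycoproteins, had means of at most 0.361 CPM in any group and were not tested. Itga2b, the platelet integrin alpha chain, had 3.88 ± 1.42 CPM in the day 7 grafts, 5.63 ± 1.86 CPM in the day 3 grafts and 10.7 ± 4.88 CPM in the controls and fell at day 7 (-1.39 ± 0.38, adjusted p = 0.00568). Itgb3, an integrin beta chain that other cells also carry, had 97.6 ± 18.6 CPM in the day 7 grafts, 104 ± 31.3 CPM in the day 3 grafts and 22.2 ± 9.48 CPM in the controls and rose at day 7 (2.24 ± 0.27, adjusted p = 8.52e-06) and at day 3 (2.31 ± 0.27, adjusted p = 7.33e-06). Macrophage markers, of which 9 of 9 rose on both days, had a summed level of 9625 to 13817 CPM in the day 7 grafts, 5303 to 12073 CPM in the day 3 grafts and 1427 to 3948 CPM in the controls. Over all genes 32.3% were called higher at day 7 and 30.1% at day 3. The part of platelets and of macrophages in the levels of Pf4 and Ppbp was not tested.

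The ligands of CCR2, the receptor that brings monocytes into tissue, all rose on both days and were lower at day 7 than at day 3, a call that did not hold under several alternatives given with that comparison. Ccl2 (ENSMUSG00000035385, chr11:82035571-82037453), the principal monocyte attractant, had 202, 133, 156, 184 and 152 CPM in the day 7 grafts, 445, 407, 364, 497 and 424 CPM in the day 3 grafts and 4.82, 3.89, 3.71, 3.20 and 35.8 CPM in the controls. The 3 groups did not overlap, and control 5 was above the other controls by a wide margin. Ccl2 rose by 4.76 ± 0.43 (adjusted p = 5.73e-07) at day 7 and 6.13 ± 0.44 (adjusted p = 1.69e-07) at day 3. Ccl7 (ENSMUSG00000035373, chr11:82045712-82047525), the neighbor of Ccl2 on the chromosome and a ligand of the same receptor, had 218, 125, 143, 164 and 154 CPM in the day 7 grafts, 505, 467, 404, 546 and 425 CPM in the day 3 grafts and 4.76, 2.73, 4.29, 3.07 and 43.4 CPM in the controls. Its levels were close to those of Ccl2 in each sample, and its groups did not overlap either. Ccl7 rose by 4.71 ± 0.48 (adjusted p = 1.68e-06) at day 7 and 6.27 ± 0.50 (adjusted p = 3.06e-07) at day 3.

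Ccl12 (ENSMUSG00000035352, chr11:82101845-82103400), a rodent CCR2 ligand, had 42.9, 19.4, 22.2, 26.8 and 38.0 CPM in the day 7 grafts, 93.2, 63.2, 55.9, 76.2 and 49.6 CPM in the day 3 grafts and 5.44, 3.19, 5.33, 1.94 and 22.3 CPM in the controls. Control 5 lay within the range of the day 7 grafts but below all day 3 grafts. Ccl12 rose by 2.43 ± 0.47 (adjusted p = 0.000416) at day 7 and 3.65 ± 0.46 (adjusted p = 1.27e-05) at day 3. Without control 5 the day 7 and day 3 changes were 5.41 and 6.78 for Ccl2 and 5.44 and 7.00 for Ccl7. The receptor Ccr2 had 244 ± 94.0 CPM in the day 7 grafts, 451 ± 121 CPM in the day 3 grafts and 51.9 ± 25.4 CPM in the controls and rose by 2.21 ± 0.34 (adjusted p = 6.5e-05) at day 7 and 3.18 ± 0.36 (adjusted p = 4.24e-06) at day 3.

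Among Ccl3, Ccl4, Ccl5, Ccl6 and Ccl9, inflammatory CC ligands that attract monocytes, macrophages and activated lymphocytes, 4 of 5 rose on both days and Ccl5 fell. Ccl6 (ENSMUSG00000018927, chr11:83587882-83593087), a CCR1 ligand of mouse macrophages, had 921, 861, 1022, 760.0 and 3435 CPM in the day 7 grafts, 3266, 1810.2, 2879, 2925 and 2005 CPM in the day 3 grafts and 73.9, 80.9, 58.6, 251 and 639.6 CPM in the controls. It was the ligand with the most counts, with day 7 graft 5 above all day 3 grafts and the other day 7 grafts below them. Ccl6 rose by 3.05 ± 0.63 (adjusted p = 0.000718) at day 7 and 4.17 ± 0.66 (adjusted p = 8.57e-05) at day 3. Ccl9 (ENSMUSG00000019122, chr11:83572919-83578636), its neighbor and another CCR1 ligand, had 835, 758, 792, 603 and 1853 CPM in the day 7 grafts, 1947, 1084, 1815, 2000.0 and 1377 CPM in the day 3 grafts and 41.1, 46.2, 34.4, 168 and 492 CPM in the controls. The samples stood nearly in the same order as for Ccl6, with control 5 the highest control. Ccl9 rose by 3.33 ± 0.67 (adjusted p = 0.000593) at day 7 and 4.19 ± 0.69 (adjusted p = 0.000129) at day 3. Without control 5 the changes of Ccl9 were 3.94 and 4.80. Macrophage markers summed to 13817 CPM in day 7 graft 5, against 9625 to 11353 CPM in the other day 7 grafts.

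Ccl3 (ENSMUSG00000000982, chr11:83647844-83649355), macrophage inflammatory protein 1 alpha, had 84.4, 14.3, 35.0, 12.2 and 10.2 CPM in the day 7 grafts, 25.6, 17.3, 18.1, 22.4 and 15.8 CPM in the day 3 grafts and 0.733, 0.638, 0.316, 0.253 and 0.852 CPM in the controls. The controls were all below 1 CPM, and day 7 grafts 1 and 3 exceeded every day 3 graft. Ccl3 rose by 5.44 ± 1.04 (adjusted p = 0.000404) at day 7 and 5.24 ± 1.04 (adjusted p = 0.000578) at day 3. Ccl4 (ENSMUSG00000018930, chr11:83662584-83664683), its neighbor, also called macrophage inflammatory protein 1 beta, had 44.1, 8.70, 14.3, 7.84 and 3.20 CPM in the day 7 grafts, 17.9, 12.3, 15.9, 21.9 and 15.7 CPM in the day 3 grafts and 0.733, 0.754, 0.904, 0.547 and 0.899 CPM in the controls. Day 7 graft 1 was the highest sample and day 7 graft 5 the lowest graft, still above each control. Ccl4 rose by 3.80 ± 0.86 (adjusted p = 0.0015) at day 7 and 4.40 ± 0.85 (adjusted p = 0.000439) at day 3. On the log2(CPM + 1) scale the changes were 3.92 and 3.74 for Ccl3 and 2.77 and 3.31 for Ccl4. The receptor Ccr1, which binds several of these ligands, rose by 3.90 ± 0.51 (adjusted p = 1.57e-05) at day 7 and 4.48 ± 0.52 (adjusted p = 5.72e-06) at day 3.

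Ccl5 (ENSMUSG00000035042, chr11:83525778-83530518), a product of activated T cells and natural killer cells, had 2.58, 2.57, 4.26, 6.19 and 2.97 CPM in the day 7 grafts, 3.56, 2.42, 6.50, 2.34 and 6.51 CPM in the day 3 grafts and 33.8, 27.8, 52.2, 2.40 and 14.2 CPM in the controls. It was lower in all grafts than in controls 1, 2, 3 and 5, while control 4 lay at the level of the grafts. Ccl5 fell, with -2.28 ± 0.81 (adjusted p = 0.0233) at day 7 and -2.14 ± 0.80 (adjusted p = 0.0305) at day 3. Without control 4 the changes were -3.12 and -2.95. The call at day 3 ended without control 1, 2 or 3 or day 3 graft 1, 2 or 4 (adjusted p = 0.0528 to 0.0699), and both calls ended with scaling by library totals (0.0622 at day 7 and 0.0731 at day 3) and with 2 groups in the fit (0.0522 and 0.0656). T and natural killer cell markers, of which 5 of 8 fell on both days, had a summed level of 9.29 to 39.9 CPM in the day 7 grafts, 3.49 to 27.2 CPM in the day 3 grafts and 22.0 to 411 CPM in the controls. Control 4 held 22.0 CPM of them against 248 to 411 CPM in the other controls. Over all genes 28.4% were called lower at day 7 and 30.2% at day 3. The part of the T and natural killer cell markers in the fall of Ccl5 was not tested.

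Ligands of CCR3, the receptor of eosinophils, passed at day 3. Ccl24 (ENSMUSG00000004814, chr5:135569937-135573049), also called eotaxin 2, had 5.99, 3.90, 4.38, 5.15 and 49.9 CPM in the day 7 grafts, 17.0, 12.5, 27.7, 27.1 and 17.3 CPM in the day 3 grafts and 1.57, 4.06, 1.94, 10.1 and 5.25 CPM in the controls. Day 7 graft 5 stood far above the other day 7 grafts, and day 3 grafts lay above all controls. Ccl24 rose by 2.36 ± 0.68 (adjusted p = 0.00754) at day 3, and its day 7 change was 1.00 ± 0.73 (adjusted p = 0.247). Ccl11 (ENSMUSG00000020676, chr11:82057823-82062955), eotaxin 1, had 28.6, 34.4, 24.3, 30.5 and 24.3 CPM in the day 7 grafts, 63.3, 70.1, 23.8, 35.1 and 59.5 CPM in the day 3 grafts and 18.0, 19.8, 10.2, 38.1 and 35.8 CPM in the controls. Day 3 grafts 3 and 4 lay within the control range. Ccl11 rose by 1.09 ± 0.35 (adjusted p = 0.0158) at day 3, with 0.36 ± 0.36 (adjusted p = 0.405) at day 7. Ccr3 itself had 4.13 ± 1.16 CPM in the day 7 grafts, 10.5 ± 3.04 CPM in the day 3 grafts and 0.632 ± 0.548 CPM in the controls and rose by 3.11 ± 0.58 (adjusted p = 0.000349) at day 7 and 4.44 ± 0.56 (adjusted p = 1.15e-05) at day 3. The 6 eosinophil markers listed, Ccr3 among them, moved in opposite directions. Of the 4 tested, 3 were higher and 1 lower at day 7, and 2 higher and 1 lower at day 3. Over all genes 32.3% were called higher and 28.4% lower at day 7, and 30.1% higher and 30.2% lower at day 3. The summed level of the 6 markers was 3.65 to 8.87 CPM in the day 7 grafts, 7.12 to 15.1 CPM in the day 3 grafts and 1.56 to 10.4 CPM in the controls. Epx had no read in any graft, Siglecf had 0.956 ± 0.433 CPM in the day 7 grafts, 0.919 ± 0.476 CPM in the day 3 grafts and 0.129 ± 0.105 CPM in the controls, and Il5ra, which was lower, had 0.138 ± 0.159 CPM in the day 7 grafts, 0.0702 ± 0.0698 CPM in the day 3 grafts and 5.45 ± 3.42 CPM in the controls. Their part in the levels of Ccl24 and Ccl11 was not tested.

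Ccl8, Ccl17 and Ccl22, ligands of CCR8 or CCR4 on activated T cells, moved in different directions. Ccl8 (ENSMUSG00000009185, chr11:82115185-82116799), a CCR8 agonist in the mouse, had 378, 399.7, 256, 212 and 711 CPM in the day 7 grafts, 457, 197, 246, 183 and 239 CPM in the day 3 grafts and 79.5, 32.5, 46.4, 36.6 and 181 CPM in the controls. All grafts were above all controls, day 3 graft 4 only just above control 5. Ccl8 rose by 2.56 ± 0.46 (adjusted p = 0.000222) at day 7 and 2.05 ± 0.44 (adjusted p = 0.0011) at day 3, and it was the leading ligand by TPM in day 7 grafts and in controls. Ccl22 (ENSMUSG00000031779, chr8:94745590-94751699), a dendritic cell and macrophage product that acts on CCR4, had 4.87, 2.77, 8.16, 7.79 and 3.50 CPM in the day 7 grafts, 10.97, 8.86, 15.1, 9.15 and 16.9 CPM in the day 3 grafts and 41.2, 56.2, 143, 2.40 and 73.7 CPM in the controls. Control 4 lay below every graft, while the other 4 controls were above every graft. Ccl22 fell at day 7 (-2.83 ± 1.05, adjusted p = 0.0299), and its day 3 change was -1.58 ± 0.88 (adjusted p = 0.131).

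The result for Ccl22 turned on control 4, which was also the control with few lymph node markers. Without it the changes were -3.89 at day 7 and -2.62 at day 3 (adjusted p = 3.07e-06 and 2.13e-05 in limma). The day 7 call ended without control 2, 3 or 5 or day 7 graft 1, 2 or 5 (adjusted p = 0.0517 to 0.0624). It also ended with scaling by library totals (0.0598) and with 2 groups in the fit (0.0670). Ccl17 (ENSMUSG00000031780, chr8:94810453-94812036), the other CCR4 ligand, had 0.187, 0.0667, 0.3000, 0.850 and 0.451 CPM in the day 7 grafts, 0.841, 1.17, 1.52, 1.296 and 1.48 CPM in the day 3 grafts and 0.314, 0.580, 1.22, 0.168 and 1.37 CPM in the controls. It was low in all samples, and the controls overlapped both graft groups. Its changes were -1.03 ± 0.64 (adjusted p = 0.174) at day 7 and 1.11 ± 0.54 (adjusted p = 0.0859) at day 3. Without control 4 it was lower at day 7 (-1.54, adjusted p = 0.0327), and without control 3 or 5 it was higher at day 3 (adjusted p = 0.0492 and 0.0400). Of 6 dendritic cell markers 4 fell on each day, where 28.4% of all genes were called lower at day 7 and 30.2% at day 3, and Itgax rose at day 7. Dendritic cell markers had a summed level of 29.0 to 117 CPM in the day 7 grafts, 27.4 to 61.6 CPM in the day 3 grafts and 57.6 to 98.2 CPM in the controls. Their part in these results was not tested.

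The interferon-induced ligands of CXCR3, a receptor of effector T cells, moved in opposite directions at day 3 although the genes are neighbors. Cxcl9 (ENSMUSG00000029417, chr5:92321347-92328079) had 17.0, 19.9, 11.8, 14.97 and 2.22 CPM in the day 7 grafts, 19.5, 19.0, 12.3, 18.6 and 27.1 CPM in the day 3 grafts and 33.0, 38.9, 44.5, 51.5 and 31.4 CPM in the controls. Every control, control 4 included, was above every graft, and day 7 graft 5 was the lowest sample. Cxcl9 fell, with -1.88 ± 0.42 (adjusted p = 0.00138) at day 7 and -1.07 ± 0.39 (adjusted p = 0.0266) at day 3. Cxcl10 (ENSMUSG00000034855, chr5:92346638-92348889) had 22.8, 14.9, 11.1, 13.8 and 1.47 CPM in the day 7 grafts, 35.1, 29.0, 24.0, 15.6 and 42.9 CPM in the day 3 grafts and 8.27, 4.99, 15.3, 2.48 and 12.1 CPM in the controls. All day 3 grafts lay above all controls, and day 7 grafts overlapped both other groups. Cxcl10 rose at day 3 (1.95 ± 0.64, adjusted p = 0.0162), with 0.41 ± 0.70 (adjusted p = 0.624) at day 7. The day 3 call of Cxcl9 ended without day 3 graft 3 (adjusted p = 0.0654) and on the log2(TPM + 1) scale (-0.58, adjusted p = 0.134). The day 7 change of Cxcl10 was -0.0703 without control 4. Interferon gamma (Ifng) averaged at most 0.319 CPM in any group and was not tested, and Cxcr3 fell by 1.60 ± 0.46 on the log2 scale at day 7 (adjusted p = 0.00724) and by 2.09 ± 0.49 at day 3 (adjusted p = 0.00205).

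**Figure D4:**
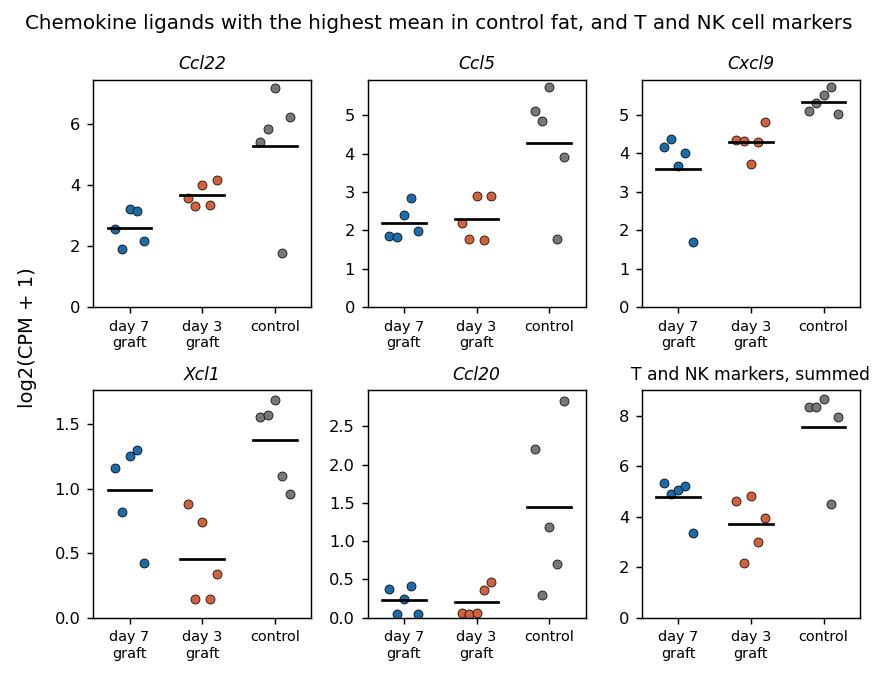
Level in each sample as log2(CPM + 1) (vertical axes) of 5 ligands with their highest mean in controls, Ccl20 among them as a gene not tested, and the summed level of 8 T and natural killer cell markers, with groups along the horizontal axes and lines at means. Control 4 lies at graft level for Ccl22, Ccl5 and the T and natural killer cell markers, but not for Cxcl9.

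Cxcl12 (ENSMUSG00000061353, chr6:117168535-117181367), made by stromal cells and a ligand of CXCR4 and the scavenger Ackr3, had 584, 374, 533, 522 and 439 CPM in the day 7 grafts, 347, 444, 222, 886 and 324 CPM in the day 3 grafts and 175, 184, 189.9, 191 and 176 CPM in the controls. The controls were nearly equal, all grafts exceeded them, and day 3 graft 4 was highest. Cxcl12 rose by 1.41 ± 0.26 (adjusted p = 0.000277) at day 7 and 1.11 ± 0.25 (adjusted p = 0.00165) at day 3, and on the log2(TPM + 1) scale by 2.16 and 1.85. Its receptor Cxcr4 had 91.0 ± 19.3 CPM in the day 7 grafts, 112 ± 42.4 CPM in the day 3 grafts and 51.1 ± 34.8 CPM in the controls and rose by 1.17 ± 0.48 (adjusted p = 0.0456) at day 7 and 1.38 ± 0.48 (adjusted p = 0.0215) at day 3. Ackr3 had 128 ± 78.1 CPM in the day 7 grafts, 285 ± 64.9 CPM in the day 3 grafts and 41.8 ± 24.7 CPM in the controls and rose by 1.72 ± 0.45 (adjusted p = 0.00437) at day 7 and 3.00 ± 0.47 (adjusted p = 8.43e-05) at day 3.

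Cxcl14 (ENSMUSG00000021508, chr13:56288643-56296551), a ligand of epithelia and fibroblasts, had 23.2, 6.80, 19.7, 14.9 and 32.0 CPM in the day 7 grafts, 21.3, 31.3, 18.5, 32.2 and 15.9 CPM in the day 3 grafts and 4.71, 4.29, 5.69, 19.0 and 21.9 CPM in the controls. Controls 4 and 5 lay among the grafts and controls 1 to 3 below all of them. Cxcl14 rose at day 3 (1.36 ± 0.50, adjusted p = 0.0293), with 0.93 ± 0.51 (adjusted p = 0.129) at day 7. The day 3 call ended without control 1, 2 or 3 or day 3 graft 2 or 4 (adjusted p = 0.0578 to 0.0795), and without day 7 graft 2 the day 7 change passed (1.28, adjusted p = 0.0244). Fibroblast markers, of which 4 of 6 rose on each day, had a summed level of 25549 to 30364 CPM in the day 7 grafts, 12583 to 26780.3 CPM in the day 3 grafts and 1593 to 7372 CPM in the controls. Over all genes 32.3% were called higher at day 7 and 30.1% at day 3.

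The 2 ligands that exist as membrane proteins, Cxcl16 and Cx3cl1, passed at day 7. Cxcl16 (ENSMUSG00000018920, chr11:70453983-70459984), the ligand of CXCR6 and also a scavenger receptor of macrophages, had 119, 78.8, 118, 95.4 and 54.1 CPM in the day 7 grafts, 57.9, 41.7, 77.8, 57.0 and 54.3 CPM in the day 3 grafts and 39.6, 32.6, 55.3, 13.1 and 42.9 CPM in the controls. Day 7 grafts lay above the controls except that day 7 graft 5 was just below control 3. Cxcl16 rose at day 7 (1.44 ± 0.33, adjusted p = 0.00171), and its day 3 change just missed the threshold (0.78 ± 0.33, adjusted p = 0.0505), passing without control 3 or 5, day 3 graft 2 or day 7 graft 5 (adjusted p = 0.0204 to 0.0437). Cx3cl1 (ENSMUSG00000031778, chr8:94772009-94782427), fractalkine, an anchor for monocytes on vessel walls, had 8.53, 9.70, 10.9, 10.7 and 4.97 CPM in the day 7 grafts, 2.16, 3.91, 2.78, 3.71 and 2.78 CPM in the day 3 grafts and 3.93, 4.12, 5.24, 2.44 and 4.07 CPM in the controls. Every day 7 graft was above every day 3 graft, and 4 of 5 were above every control. Cx3cl1 rose at day 7 (1.17 ± 0.26, adjusted p = 0.0013), with -0.34 ± 0.30 (adjusted p = 0.339) at day 3. Its receptor Cx3cr1 had 23.3 ± 11.7 CPM in the day 7 grafts, 6.09 ± 3.09 CPM in the day 3 grafts and 6.08 ± 2.85 CPM in the controls and rose at day 7 (1.93 ± 0.74, adjusted p = 0.035), with 0.13 ± 0.86 (adjusted p = 0.905) at day 3. Adam10 and Adam17, the sheddases that release both ligands from the membrane, rose on both days. Adam10 rose by 1.20 ± 0.13 (adjusted p = 2.61e-06) at day 7 and 1.41 ± 0.13 (adjusted p = 8.27e-07) at day 3.

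The remaining ligands tested were low. Ccl25 (ENSMUSG00000023235, chr8:4325210-4360020), the CCR9 ligand of gut and thymus, had 6.29 ± 1.05 CPM in the day 7 grafts, 5.65 ± 0.730 CPM in the day 3 grafts and 8.87 ± 0.578 CPM in the controls and fell, with -0.51 ± 0.14 (adjusted p = 0.00591) at day 7 and -0.67 ± 0.14 (adjusted p = 0.00111) at day 3. Neither call of Ccl25 held on the log2(TPM + 1) scale, where the changes were -0.18 and -0.30 (adjusted p = 0.298 and 0.0944), and without the libraries that stood apart the day 7 call ended (-0.47, adjusted p = 0.0704). Ccl27a (ENSMUSG00000073888, chr4:41769467-41774247), known as a skin ligand of CCR10, had 1.89 ± 0.226 CPM in the day 7 grafts, 1.62 ± 0.462 CPM in the day 3 grafts and 3.47 ± 1.22 CPM in the controls and fell, with -0.80 ± 0.27 (adjusted p = 0.0191) at day 7 and -1.03 ± 0.28 (adjusted p = 0.00555) at day 3. Reads of Ccl27a are uncertain, because near-identical copies of the gene exist, and its day 7 call ended on the log2(TPM + 1) scale (-0.38, adjusted p = 0.137). Xcl1 (ENSMUSG00000026573, chr1:164931644-164935527), a product of natural killer and T cells for dendritic cells with Xcr1, had 1.04 ± 0.474 CPM in the day 7 grafts, 0.399 ± 0.339 CPM in the day 3 grafts and 1.64 ± 0.562 CPM in the controls and fell at day 3 (-2.39 ± 0.57, adjusted p = 0.00235), with -0.74 ± 0.47 (adjusted p = 0.188) at day 7. On the log2(CPM + 1) scale its day 3 change was -0.92. Ccl28 (ENSMUSG00000074715, chr13:119623819-119654359), a mucosal ligand, had 0.327 ± 0.0774 CPM in the day 7 grafts, 0.430 ± 0.201 CPM in the day 3 grafts and 0.558 ± 0.339 CPM in the controls, and its changes were -0.60 ± 0.46 (adjusted p = 0.272) at day 7 and -0.37 ± 0.45 (adjusted p = 0.488) at day 3.

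Among the 8 ligands that were not tested, Ccl26 and Cxcl15 had no read in any of the 15 samples, which allows at most 0.0900 to 0.174 CPM per library by the floor of 3 counts. Ccl1, a CCR8 ligand, held 10 counts in all, Cxcl17, a mucosal ligand, 8 counts and Ccl27b 3 counts. The 2 scaffold copies of Ccl27 held 11 and 29 counts. Ccl20, the ligand of CCR6, was the exception among them, with 289 counts and 0.299, 0.0333, 0.180, 0.331 and 0.0376 CPM in the day 7 grafts, 0.0400, 0.0356, 0.0422, 0.288 and 0.381 CPM in the day 3 grafts and 3.61, 0.232, 1.27, 0.632 and 6.11 CPM in the controls. Controls 1, 3, 4 and 5 lay above all grafts, and control 2 lay among them.

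Members of a receptor group are mostly neighbors on the mouse genome, and 27 of the 37 genes lie in 7 clusters with gaps under 1 Mb between genes (mm10 positions from the matrix). Over all genes 32.3% were called higher and 28.4% lower at day 7, and 30.1% higher and 30.2% lower at day 3. The chromosome 5 cluster at chr5:90759360-90905938 holds Cxcl5, Ppbp, Pf4, Cxcl3, Cxcl15, Cxcl1 and Cxcl2, and 6 of its 6 tested genes rose on both days. For Cxcl2, Cxcl3 and Cxcl5 among them the filter had fixed the direction, as given above. On chromosome 11, the cluster at chr11:82035571-82305690 holds Ccl2, Ccl7, Ccl11, Ccl12, Ccl8 and Ccl1, of which 4 of 5 tested rose at day 7 and 5 of 5 at day 3. The next cluster of that chromosome, at chr11:83525778-83664683, holds Ccl5, Ccl9, Ccl6, Ccl3 and Ccl4, and Ccl5 fell on both days while the other 4 rose. Cxcl9 and Cxcl10, at chr5:92321347-92348889, moved in opposite directions at day 3. Ccl22, Cx3cl1 and Ccl17, at chr8:94745590-94812036, had 1 gene lower, 1 higher and 1 not passing at day 7.

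Between the graft days the inflammatory ligands that changed were lower at day 7. In day 7 against day 3 grafts 1 of the 29 ligands was higher, 5 were lower and 23 did not pass in limma, where 3.18% of all genes were called higher and 1.71% lower. Groups did not overlap for 1 ligand higher and 5 lower, where the shares over all genes were 4.56% and 3.33%. The median fitted log2 fold change was -0.73, against 0.02 over all genes. Lower at day 7 were Cxcl1 (-2.16 ± 0.44, adjusted p = 0.0144), Ccl7 (-1.56 ± 0.38, adjusted p = 0.0321), Ccl2 (-1.37 ± 0.34, adjusted p = 0.0327), Ccl12 (-1.21 ± 0.32, adjusted p = 0.0438) and Ccl17 (-2.14 ± 0.57, adjusted p = 0.0453). The values of Cxcl1, Ccl2, Ccl7 and Ccl12 given above did not overlap between the graft days, and those of Ccl17 overlapped. The fifth ligand without overlap was Ccl22, at -1.24 ± 1.12 (adjusted p = 0.593). That fit shares its spread with the controls, which ran from 2.40 to 143 CPM for Ccl22. With only the 2 graft groups in the fit Ccl22 passed (-1.26, adjusted p = 0.0343). Higher was Cx3cl1 (1.51 ± 0.26, adjusted p = 0.00633).

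Cxcl1 and Cx3cl1 stayed past the threshold whichever sample was left out. The other calls were less firm. Those of Ccl2 and Ccl7 ended without any 1 of the 5 day 3 grafts or without day 7 graft 2, 3 or 4, and that of Ccl2 also without day 7 graft 1 (adjusted p = 0.0554 to 0.0900). All 3 CCR2 ligands missed the threshold on the log2(CPM + 1) scale (adjusted p = 0.0931 for Ccl2, 0.0914 for Ccl7 and 0.133 for Ccl12), on the log2(TPM + 1) scale (0.182, 0.168 and 0.272) and with the replicate block (0.0860, 0.0825 and 0.0726). Ccl17 and Ccl12 missed it with library totals (0.0735 and 0.0687) and with no filter (0.0616 and 0.0589), and Ccl17 on the log2(TPM + 1) scale (0.0828) and with the block (0.0761). With 1 sample left out the call of Ccl12 ended in 10 fits (0.0593 to 0.125) and that of Ccl17 in 9 (0.0607 to 0.129). In the fits with 1 sample left out in which a call ended, changes lay between -1.61 and -1.07 for the 3 CCR2 ligands. For Ccl17 they lay between -2.19 and -1.68 there. Its change was smaller on the log2(CPM + 1) scale, at -0.74 (adjusted p = 0.0465 in limma), and on the log2(TPM + 1) scale, at -1.40.

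Day 7 graft 5 lay within or above the range of the day 3 grafts in Ccl6, Ccl9, Pf4 and Ccl24. Over all samples Ccl24 had -1.36 ± 0.54 (adjusted p = 0.171), Ppbp -1.89 ± 0.54 (adjusted p = 0.0601) and Xcl1 1.65 ± 0.59 (adjusted p = 0.125) against day 3. Without day 7 graft 5 these passed, with Ccl24 at -2.02 (adjusted p = 0.00619), Ppbp at -2.16 (adjusted p = 0.0251) and Xcl1 at 1.99 (adjusted p = 0.0309). Ppbp also passed without control 4 (-1.92, adjusted p = 0.0439). Ccl6 had -1.12 ± 0.73 (adjusted p = 0.431), Pf4 -0.98 ± 0.45 (adjusted p = 0.24) and Ccl9 -0.85 ± 0.77 (adjusted p = 0.595) over all samples, and none of the 3 passed without day 7 graft 5 alone (0.213, 0.0512 and 0.441). With all 5 libraries that stood apart left out, 10 ligands were lower and 3 higher at day 7. Ccl3 had 0.20 ± 0.45 (adjusted p = 0.861), and without day 7 graft 1 its change was -0.26.

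**Figure D5:**
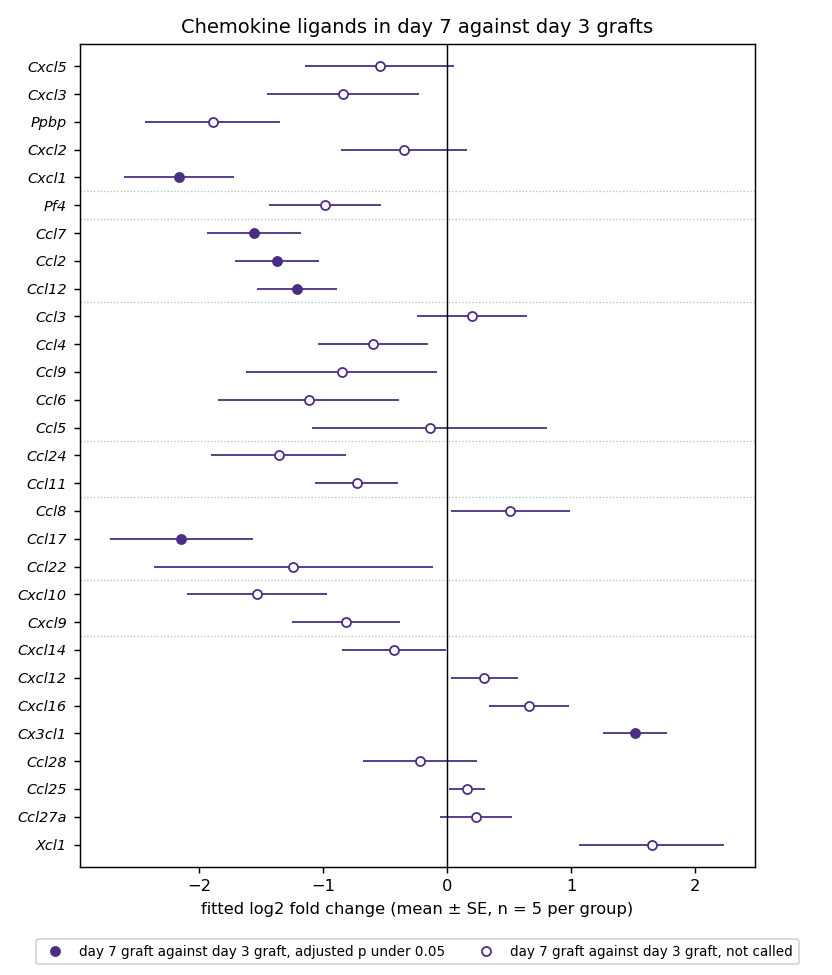
Fitted log2 fold change of day 7 against day 3 grafts (horizontal axis, mean ± SE, 5 samples per group) for the 29 ligands tested, with filled points for an adjusted p under 0.05. Cxcl1 and Ccl17 lie near -2.1, the CCR2 ligands between -1.56 and -1.21, and Cx3cl1 alone among the filled points is above 0, at 1.51.

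Receptors of these ligands moved both ways. Of 19 listed chemokine receptors 14 were tested, and 6 were higher and 7 lower at day 7, and 5 higher and 7 lower at day 3, where 32.3% and 28.4% of all genes were called higher and lower at day 7 and 30.1% and 30.2% at day 3. With 1 sample left out 4 to 6 were higher and 6 to 7 lower at day 7, and 4 to 5 higher and 6 to 7 lower at day 3. Ccr1, Ccr2, Ccr3 and Cxcr4 were among those that rose on both days, and Cx3cr1 rose at day 7. Ccr6, Ccr7, Ccr9, Cxcr3, Cxcr5, Cxcr6 and Xcr1, which lymphocytes or dendritic cells carry, fell on both days. Among them Cxcr6, the receptor of Cxcl16, had 1.29 ± 0.722 CPM in the day 7 grafts, 0.404 ± 0.138 CPM in the day 3 grafts and 9.75 ± 5.02 CPM in the controls. Xcr1, the receptor of Xcl1, had 0.280 ± 0.115 CPM in the day 7 grafts, 0.215 ± 0.164 CPM in the day 3 grafts and 4.37 ± 2.49 CPM in the controls. Ccr4 and Ccr8, receptors of Ccl22, Ccl17 and Ccl8, were not tested, with 0.157 ± 0.136 CPM in the day 7 grafts, 0.0772 ± 0.0312 CPM in the day 3 grafts and 7.13 ± 7.30 CPM in the controls for Ccr4. Ccr3 alone changed between the graft days, lower at day 7 (-1.33 ± 0.33, adjusted p = 0.0327), and with 1 sample left out the receptors called between the graft days numbered 0 to 2. B cell markers, of which 6 of 6 fell on both days, had a summed level of 8.38 to 23.1 CPM in the day 7 grafts, 3.46 to 7.44 CPM in the day 3 grafts and 150.4 to 1883 CPM in the controls, and their part in the receptor changes was not tested.

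Cytokines that induce chemokines were listed beside them. Of 10 listed, 5 were tested and 3 rose on each day, where 32.3% of all genes were called higher at day 7 and 30.1% at day 3. Il6 had 7.03 ± 2.20 CPM in the day 7 grafts, 32.9 ± 22.1 CPM in the day 3 grafts and 0.788 ± 1.31 CPM in the controls and rose by 4.12 ± 1.14 (adjusted p = 0.0059) at day 7 and 6.11 ± 1.09 (adjusted p = 0.000244) at day 3. Il6 was lower in day 7 than in day 3 grafts (-1.99 ± 0.52, adjusted p = 0.0417), and the other 4 cytokines tested did not pass in that comparison. Il1b had 114 ± 138 CPM in the day 7 grafts, 63.7 ± 27.8 CPM in the day 3 grafts and 7.29 ± 9.84 CPM in the controls and rose by 3.74 ± 1.16 (adjusted p = 0.012) at day 7 and 3.70 ± 1.16 (adjusted p = 0.0127) at day 3. Tnf, a classical inducer of Ccl2, had 10.2 ± 7.93 CPM in the day 7 grafts, 11.96 ± 3.12 CPM in the day 3 grafts and 7.93 ± 4.42 CPM in the controls and did not pass, with 0.50 ± 0.65 (adjusted p = 0.513) at day 7 and 1.01 ± 0.62 (adjusted p = 0.172) at day 3.

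Enzymes that cut chemokines were mostly higher. Of 7 listed, 6 rose on each day, where 32.3% of all genes were called higher at day 7 and 30.1% at day 3. Dpp4, which trims Cxcl12 and other ligands at their ends, fell at day 7 (-1.14 ± 0.30, adjusted p = 0.0045). Mmp12, a macrophage protease that cleaves CXC and CC ligands, had 585 ± 177 CPM in the day 7 grafts, 288 ± 86.3 CPM in the day 3 grafts and 2.44 ± 1.77 CPM in the controls. It rose by 8.07 ± 0.42 (adjusted p = 1.42e-08) at day 7 and 7.05 ± 0.41 (adjusted p = 4.76e-08) at day 3. The atypical receptors, which take up chemokines without signaling for migration, were mixed. Of 5 listed, 2 rose and 2 fell at day 7, and 1 rose and 2 fell at day 3. Over all genes 32.3% were called higher and 28.4% lower at day 7, and 30.1% higher and 30.2% lower at day 3. Ackr4 had 0.173 ± 0.169 CPM in the day 7 grafts, 0.259 ± 0.248 CPM in the day 3 grafts and 1.98 ± 0.627 CPM in the controls and fell at day 7 (-4.06 ± 0.70, adjusted p = 0.000168) and day 3 (-3.19 ± 0.64, adjusted p = 0.000606). Ackr1 had 3.89 ± 1.96 CPM in the day 7 grafts, 4.70 ± 2.77 CPM in the day 3 grafts and 15.2 ± 11.4 CPM in the controls and fell at day 7 (-1.86 ± 0.50, adjusted p = 0.0049) and day 3 (-1.67 ± 0.49, adjusted p = 0.00864), and Ackr3 rose on both days as given above.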

How the data were processed

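Messenger RNA of 15 adipose tissue samples (5 per group) was sequenced from stranded libraries as paired reads of 151 bp. Per the submitters' processing notes, reads were trimmed with cutadapt 2.8, aligned to mouse build mm10 with STAR 2.7.1a and counted with RSEM 1.3.1. RSEM divides reads shared by near-identical genes among them, so values of such copies are uncertain. The deposited matrix holds estimated counts with separators between digits, which were removed, along with TPM and RPKM values that the authors deposited. The RPKM values entered no test. Each of its 45 value columns was matched to a sample by name.

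Counts were scaled by the trimmed mean of M-values (30% and 5% trimmed). Genes with 10 counts at the median library size in 5 samples and 15 counts in all were kept, which left 16051. They were tested with limma 3.58.1 (voom weights, all 15 samples in the fit, R 4.3.3), with Benjamini-Hochberg adjustment over all genes tested and a threshold of 0.05. Log2 fold changes are given ± SE and levels ± SD. CPM values use the scaled library totals. The deposited counts carry 17.1 to 32.0 M per sample. The fit was also run on simulated counts with the same spread for every gene and independent samples. Some libraries here stood apart, which that simulation does not copy, so it does not bear on the calls. RefSeq symbols (GRCm38.p6) matched 35 of the 37 members. Gene sequences and protein comparisons were not used here, and the planned search for promoter motifs and comparison of proteins were not run.

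Members and lists were chosen with earlier results of these data known. By the rule for named genes every ligand is accounted for, with each sample's value where a group mean reached 10 CPM. Ligands with a mean of at least 1 CPM are given by group means, receptors by their ligand, and other lists by up to 2 called members with the largest change in each direction. Ly6g, Epx, Siglecf, Ifng, Tnf, Adam10, Adam17, and the group means of Ccl28 and the sample values of Cx3cl1, Ccl17 and Ccl20 go beyond that rule and were chosen after their values were seen. Results for 1 listed gene are not reported here. Alternatives were other scalings, filters, weights, units, the replicate block and leaving out samples.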

Additional observations from a re-analysis of the deposited data

Results flagged for a closer look

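Single samples stood far from the other 4 of their group, by Dixon's criterion for 5 values (0.71), in 15 of the 87 combinations of a tested ligand and a group (17.2%). The criterion flags about 1 in 20 by chance only for independent, normally distributed values. CPM values of ligands that vary together are not such values, so no excess over chance can be read from this share. In day 7 graft 5 Ccl6 was at 3435 CPM, Ccl9 at 1853 CPM, Pf4 at 793.5 CPM and Ccl24 at 49.88 CPM, each above the other day 7 grafts. In day 7 graft 1 Cxcl2 was at 186.5 CPM and Ccl4 at 44.13 CPM, and this sample also had the highest neutrophil marker sum of the study at 960.4 CPM. Among the day 3 grafts, graft 4 stood out with Ppbp at 720.4 CPM and Cxcl3 at 132 CPM, and graft 1 with Ccl8 at 456.6 CPM. In control 5 Ccl7 was at 43.41 CPM, Ccl2 at 35.84 CPM, Ccl12 at 22.3 CPM, Cxcl5 at 14.3 CPM, Cxcl1 at 4.876 CPM and Cxcl3 at 1.42 CPM. Macrophage markers in control 5 summed to 3948 CPM, against 1427 to 1801 CPM in the other controls. These marker sums are given as values, and their part in the ligand levels was not tested.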

How the results depend on the processing

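Between the graft days the number of ligands called, 6, was 3 on the log2(CPM + 1) scale, 2 on the log2(TPM + 1) scale, 13 with sample quality weights, 13 without the libraries that stood apart and 2 with the replicate block, and 2 to 9 with 1 sample left out. Ligands called higher there, 1, numbered 3 with weights and 3 without those libraries, and 1 to 2 with 1 sample left out. Ligands called lower, 5, numbered 3 with library totals, 3 with no filter, 2 on log2(CPM + 1), 1 on log2(TPM + 1), 10 with weights, 10 without those libraries and 1 with the block, and 1 to 7 with 1 sample left out. Receptors called there, 1, numbered 2 with no filter, 5 with weights, 3 without those libraries and 0 with the block, and 0 to 2 with 1 sample left out, of which 2 with weights and 2 without those libraries were higher, and 0 to 1 with 1 sample left out. Receptors called lower, 1, numbered 2 with no filter, 3 with weights and 0 with the block, and 0 to 1 with 1 sample left out. Ligands called lower at day 7 against control, 5, numbered 3 with library totals, 3 with 2 groups in the fit and 3 on log2(TPM + 1), and at day 3 they numbered 8 with no filter and 3 on log2(TPM + 1). With 1 sample left out 21 to 23 ligands were called at day 7 and 22 to 26 at day 3, and the block gave 22 and 25. The labels do not say whether same-numbered samples belong together. Their deviations correlated over 0.1 in 5 of 15 pairs (r from -0.183 to 0.341), and 2 of 15 matched their own number best. Such correlations cannot show whether these samples share an animal or a batch. Of the gene values under alternatives 2127 kept direction and side of the threshold, 88 lost a call, 38 gained one and 6 turned. The 6 were not called: Ccl28 at day 3 (0.0180 without day 3 graft 5, range -0.56 to 0.0180 with 1 sample left out), Cxcl10 at day 7 (-0.0703 to 1.07, lowest without control 4), Ccl3 between graft days (-0.26 to 0.48 with 1 sample left out, lowest without day 7 graft 1, and 0.55 without the libraries that stood apart) and Ccl5 between graft days (0.000936 on log2(TPM + 1), 0.0358 and 0.0499 without day 3 graft 3 or 5, lowest -0.33 with 1 sample left out and -0.36 with the replicate block). The cause of these shifts was not tested.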
